A study of Mus musculus with 28 samples.

Results

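The genes described here are 7 subunits of the GABA-A receptor, chosen by name from 41549 genes counted in sorted nuclei of mouse motor cortex: the alpha subunits Gabra2, Gabra3, Gabra4 and Gabra5, the beta subunits Gabrb1 and Gabrb2, and the delta subunit Gabrd. All 7 were found in both count tables under these names. The study asked whether Cas9 delivered by adeno-associated virus (AAV) can lower a chosen microRNA in the rodent brain. Each of 7 mice received AAV-Cas9-miR-124-empty in the left motor cortex and AAV-Cas9-miR-124-g4 in the right one, so vector and hemisphere cannot be told apart. What g4 denotes is not stated in the labels. Nuclei of paraformaldehyde-fixed tissue were stained for the HA tag carried with Cas9 and sorted, which gave 4 groups of 7 libraries: HA-positive nuclei from the empty side and from the g4 side, and HA-negative nuclei from each. Strain, age and the promoter that drives Cas9 are not stated in the labels, every animal carried both vectors, and no uninjected animal is among the 28 libraries.

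GABA-A receptors are chloride channels opened by GABA, the main inhibitory transmitter of the adult cortex. Each channel is a ring of subunits, most often alpha and beta subunits joined by a gamma or delta subunit. The alpha subunit shapes the response to benzodiazepines and the location of the receptor, the beta subunit takes part in the GABA binding site and in trafficking to the membrane, and the delta subunit is typical of receptors outside the synapse that carry tonic inhibition. Gabrb2 encodes the beta subunit most common in the adult brain, while receptors with the subunits encoded by Gabra2, Gabra3 and Gabra5 make up smaller, more regional pools.

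The subunit genes lie in clusters, and the cluster on chromosome 5 holds 3 of the 7. On GRCm38, Gabra2 spans chr5:70957597-71095849 on the minus strand, Gabra4 spans chr5:71569749-71658308 on the minus strand, and Gabrb1 spans chr5:71658113-72149037 on the plus strand. Gabrb2 lies at chr11:42419757-42629028 on the plus strand. Gabra5 lies at chr7:57407672-57510059 on the minus strand, Gabra3 at chrX:72432681-72656848 on the minus strand, and Gabrd at chr4:155384980-155398112 on the minus strand. Gabra4 and Gabrb1 overlap by 196 bases on opposite strands, and Gabra5 shares most of its span with another gene on the opposite strand. The strand setting of the counting is not given in the sources used here, so reads from these shared stretches cannot be assigned to one gene or the other with certainty.

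Start-site windows are shown for the neighbours Gabrb1 and Gabra4, whose starts face each other, and for Gabrb2, the subunit with the best-supported difference below. Each window is 300 bases from RefSeq on GRCm38.p6, written 5′ to 3′ on the strand of its gene, and matches to a TATA box (TATAAA) or GC box (GGGCGG), read on both strands, are in capitals. The Gabrb1 window is chr5:71657671-71657970 on the plus strand, the Gabra4 window is chr5:71658259-71658558 on the minus strand, and the first of 3 Gabrb2 windows is chr11:42420190-42420489 on the plus strand.
Gabrb1: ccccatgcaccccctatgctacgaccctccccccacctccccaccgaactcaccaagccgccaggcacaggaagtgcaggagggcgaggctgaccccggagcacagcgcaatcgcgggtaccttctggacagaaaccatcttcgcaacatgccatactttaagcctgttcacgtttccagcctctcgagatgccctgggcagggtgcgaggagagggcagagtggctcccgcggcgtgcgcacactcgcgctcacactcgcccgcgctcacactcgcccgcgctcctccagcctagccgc
Gabra4: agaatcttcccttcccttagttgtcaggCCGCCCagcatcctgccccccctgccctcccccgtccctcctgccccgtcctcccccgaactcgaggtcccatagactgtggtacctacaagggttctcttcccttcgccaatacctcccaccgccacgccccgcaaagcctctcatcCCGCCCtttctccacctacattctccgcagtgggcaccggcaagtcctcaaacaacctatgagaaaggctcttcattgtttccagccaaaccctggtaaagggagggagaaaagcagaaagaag
Gabrb2: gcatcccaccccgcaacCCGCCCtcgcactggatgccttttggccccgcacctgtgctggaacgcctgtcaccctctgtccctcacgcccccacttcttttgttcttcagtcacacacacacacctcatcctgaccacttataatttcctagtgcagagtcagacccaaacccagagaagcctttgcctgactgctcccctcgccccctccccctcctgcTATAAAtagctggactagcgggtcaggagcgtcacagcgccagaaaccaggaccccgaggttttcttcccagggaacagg
The start sites of Gabrb1 and Gabra4 are 387 bases apart on opposite strands. The Gabra4 window held 2 GC boxes and no TATA box, the Gabrb1 window shown held neither motif but 25 CpG dinucleotides, and the Gabrb2 window shown held 1 of each motif. A second Gabrb1 window held neither motif and 9 CpG dinucleotides, and the other 2 Gabrb2 windows held neither motif and 9 CpG dinucleotides each. Over 32851 such windows of all genes, 35.7% held a GC box and 13.6% a TATA box, and the median number of CpG dinucleotides in a window was 7. The cyclic AMP response element TGACGTCA, which 1.79% of windows held, was in none of the members' windows. Windows were found for 6 of the 7 subunits, all but Gabrd.

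Because the vectors are named for miR-124, a microRNA abundant in neurons, each subunit's longest annotated 3′ UTR was searched for its seed matches: GTGCCTT (named 7mer-m8), the match TGCCTTA (named 7mer-A1) and the 8-base match GTGCCTTA that holds both and was counted once. Gabra2 and Gabrb1 held TGCCTTA, shown in capitals in windows of 25 bases, and the other 5 subunits held none of the 3 motifs.
Gabra2, position 1233 of a 3′ UTR of 4205 bases: tactgcaaattcTGCCTTAaggctt
Gabrb1, position 5475 of a 3′ UTR of 12228 bases: cccttgttcattTGCCTTAgggaca
Gabrb1, position 9625: ctaatccatgccTGCCTTAttaaaa
Of 21037 genes with an annotated 3′ UTR, 19.7% held at least 1 of these matches, and 2.69% held the 8-base match, which no member had. A match is a description of the sequence and not evidence of binding.

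Libraries held 248612 to 902944 counts and 8687 to 13668 detected genes, with the empty HA-positive group reaching lowest (8687 to 12778 genes). At this depth the subunits were sampled by few reads: Gabrb1 and Gabrb2 had 39 to 240 counts in a library, Gabra2, Gabra3, Gabra4 and Gabra5 had 1 to 105, and Gabrd had 1 to 26, with no library at 0 for any member. The tissue and fraction labels were read against marker lists. All 15 excitatory neuron markers had counts in every group, with summed levels of 1414 to 2654 CPM (counts scaled to library size) in HA-positive and 2230 to 3225 CPM in HA-negative libraries (Camk2a and Nrgn were the most abundant). The library labelled g4 HA-positive of animal 19 held 618 CPM of Xist beside 46.0 CPM of Y-linked transcripts, while 1 of the other 27 held both, with 3.67 CPM of Y-linked transcripts. Levels of miR-124 itself are not analysed here.

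No subunit was called as changed between g4 and empty, in either fraction. In HA-positive nuclei, 0 of 6 tested subunits passed (edgeR, adjusted p under 0.05), against 0.0599% of all 5011 tested genes. The largest difference was in Gabra5, a subunit best known from hippocampal receptors outside the synapse. Gabra5 ranged from 11.0 to 38.2 CPM (median 20.4) in empty and from 19.8 to 54.7 CPM (median 35.0) in g4 HA-positive libraries, so the groups overlapped. It was higher with g4 in 6 of 7 animals, by 0.74 ± 0.42 on the log2 scale (± SE, adjusted p = 0.754). For Gabra4, a partner of the delta subunit in tonic receptors, the log2 difference was 0.47 ± 0.24 (adjusted p = 0.751, higher in 5 of 7 animals). It ranged from 49.0 to 77.3 CPM (median 74.0) with empty and from 57.7 to 134.7 CPM (median 85.0) with g4. The differences of Gabra2 and Gabrb1, which hold the seed matches, were 0.40 ± 0.46 (adjusted p = 0.927) and 0.17 ± 0.16 (adjusted p = 0.902). That of Gabra2 was 0.19 ± 0.49 without the g4 library of animal 19, and lay between 0.09 and 0.88 in all 14 alternatives. Gabra3 and Gabrb2 differed by -0.27 ± 0.32 and -0.01 ± 0.21, and the sign of both depended on the libraries included. The median over the 6 tested subunits was 0.29, and over all tested genes -0.01. None of the tested cell type markers was called in this comparison. Astrocyte markers were above 0 in 6 of 6 tested (median 0.63), excitatory neuron markers in 10 of 13 (0.26) and oligodendrocyte markers in 2 of 2 (1.84). Inhibitory neuron markers were below 0 in 11 of 14 (-0.33) and striatal projection neuron markers in 2 of 3 (-0.21). Summed oligodendrocyte markers reached 1357 CPM in the g4 library of animal 19, against a group median of 156 CPM. The part of these markers in the subunits' values was not tested. Gabrd did not reach the count minimum and was not tested in this comparison.

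In HA-negative nuclei all 7 subunits were tested and 0 were called, as were 0 of all 6262 tested genes (0%) by edgeR. At an unadjusted p under 0.05 there were 236 genes, and DESeq2 called 1 gene and limma voom 0. Log2 differences of the subunits lay between -0.17 ± 0.15 (Gabrb2) and 0.19 ± 0.31 (Gabra3), each with an adjusted p of 0.999. The median over the 7 subunits was -0.09. In these nuclei Gabra5 ranged from 24.2 to 39.5 CPM with empty and from 12.7 to 53.9 CPM with g4, and Gabra4 from 73.7 to 137.4 and from 64.9 to 142.2 CPM. For each of the 7 subunits, the g4 values overlapped the empty values.

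The g4 effect in HA-positive nuclei was also compared directly with that in HA-negative nuclei, in a model over 28 libraries. None of the 7 subunits was called, among 7197 tested genes of which 0 (0%) were called by edgeR, by DESeq2 and by limma voom, and 359 had an unadjusted p under 0.05 in edgeR. The differences of the effects ran from -0.60 ± 0.70 for Gabrd to 0.85 ± 0.51 for Gabra5, with adjusted p between 0.996 and 0.998.

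**Figure D1:**
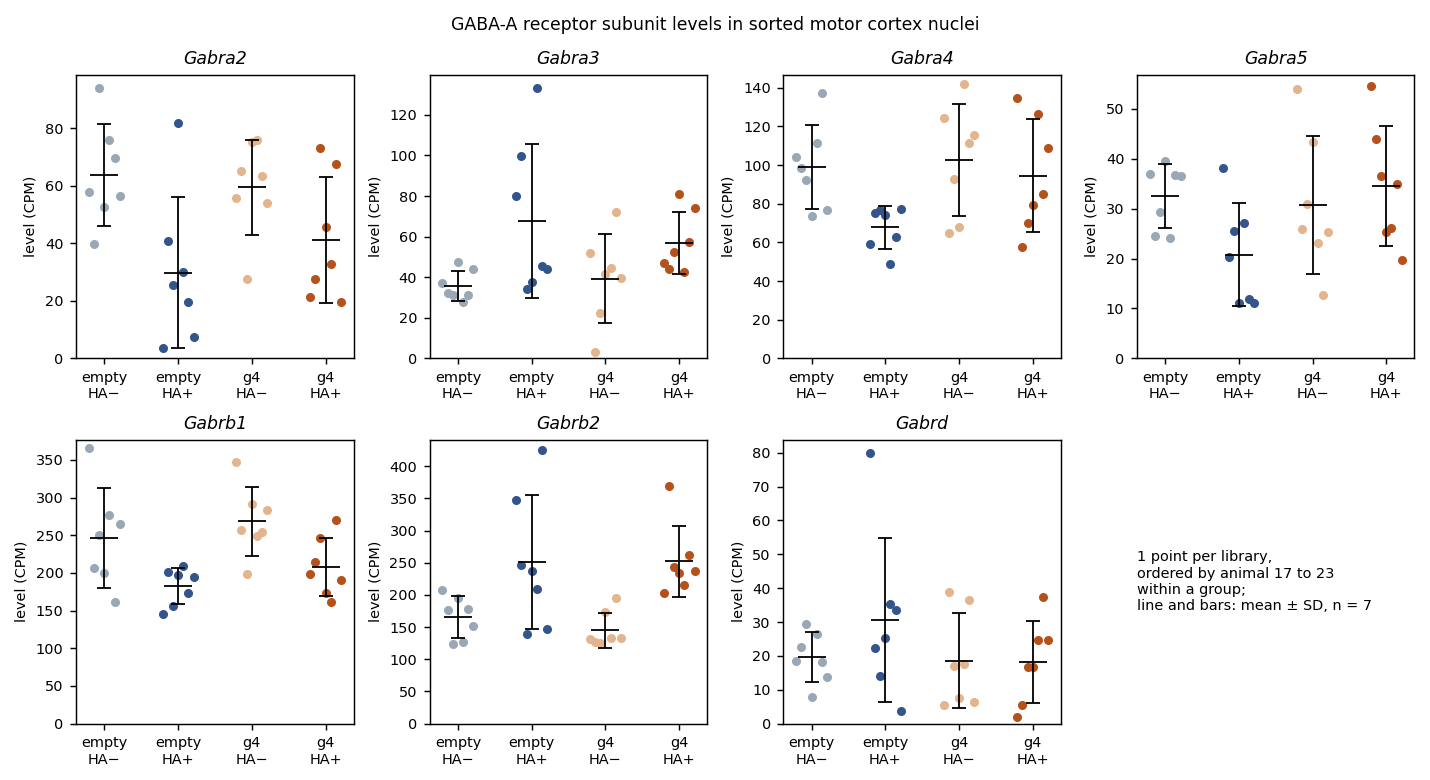
Levels of the 7 subunits in CPM (vertical axes, linear, from 0) in the 4 groups (horizontal axes); each point is 1 library, lines and bars are the mean ± SD of 7 animals. For Gabrb2 with g4, HA-positive (203 to 368 CPM) and HA-negative libraries (125 to 195 CPM) do not overlap. The share of all tested genes for which this holds was not counted.

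Between the sorted fractions, Gabrb2 was higher in HA-positive nuclei, with means of 250 ± 104 CPM (empty) and 252 ± 54.8 CPM (g4) against 166 ± 32.7 and 145 ± 27.2 CPM in HA-negative nuclei (SD, n = 7). In a bulk library, fewer cells of a type and less RNA per cell cannot be told apart, and this holds for each fraction comparison. The number of genes called in these comparisons was 7.01% of 5538 with the empty vector and 6.4% of 6264 with g4, 3.32% called higher in HA-positive nuclei.

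Gabrb2 was the 1 subunit called in a comparison of the fractions with a single vector. With g4, HA-positive libraries ranged from 203 to 368 CPM (median 237) and HA-negative ones from 125 to 195 CPM (median 133). The 2 groups did not overlap, but the share of all tested genes for which this holds was not counted. Gabrb2 was higher in 7 of 7 animals, by 0.78 ± 0.15 on the log2 scale or 1.72-fold (edgeR, adjusted p = 0.00086). The adjusted p stayed between 0.000187 and 0.0055 in the 14 alternative settings run. With the empty vector the spread was wider. Gabrb2 ranged from 139 to 426 CPM (median 238) in HA-positive and from 123 to 208 CPM (median 176) in HA-negative libraries, and the groups overlapped. The difference there was 0.62 ± 0.21 (higher in 6 of 7 animals), and the adjusted p of 0.0669 missed the threshold. Without the HA-positive libraries under 10000 detected genes it was 0.25 ± 0.19, and the adjusted p lay between 0.06 and 0.527 over 13 alternatives, none of which called it. The difference between the 2 fraction effects is that of the interaction above, 0.17 ± 0.26 (adjusted p = 0.997), which was not called. Within the 4 animals with Y-linked transcripts and the 3 without, Gabrb2 was higher in HA-positive nuclei with g4 in 4 of 4 and in 3 of 3, by 0.88 ± 0.48 and 0.65 ± 0.20 (log2, mean ± SD). With empty it was higher in 4 of 4 and in 2 of 3, by 0.42 ± 0.25 and 0.64 ± 0.65. The 4 animals include animal 19, whose g4 HA-positive library also held 618 CPM of Xist, and the split was not run without that library.

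Gabrb1, the other beta subunit described, differed in the opposite direction without being called. It ranged from 146 to 210 CPM (median 195) in empty HA-positive and from 161 to 366 CPM (median 251) in empty HA-negative libraries. With g4 the ranges were 162 to 270 CPM (median 199) and 199 to 348 CPM (median 256). The groups overlapped with both vectors, and the log2 differences were -0.42 ± 0.17 with empty (adjusted p = 0.14, lower in 6 of 7 animals) and -0.37 ± 0.14 with g4 (adjusted p = 0.12, lower in 5 of 7). Without animal 19 the g4 difference was -0.49 ± 0.14 and passed (adjusted p = 0.0314), the 1 of 14 alternatives in which it did, and without animal 17 it was -0.29 ± 0.15 (adjusted p = 0.358). With empty it passed in 0 of 13 alternatives, between -0.50 and -0.27 (adjusted p up to 0.448).

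The balance of the 2 beta subunits within a library does not depend on library size. Gabrb2 made up 55.9 ± 11.0% (empty) and 54.7 ± 5.14% (g4) of the summed counts of Gabrb1 and Gabrb2 in HA-positive libraries (SD, n = 7). In HA-negative libraries the shares were 40.7 ± 8.40% and 35.2 ± 5.12%. The share was higher in HA-positive nuclei in 7 of 7 animals with either vector, by 15.2 ± 9.94 percentage points with empty and 19.5 ± 8.23 with g4. These shares are descriptions without a test, and a ratio shows that the 2 genes differed unequally, not which of them did.

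**Figure D2:**
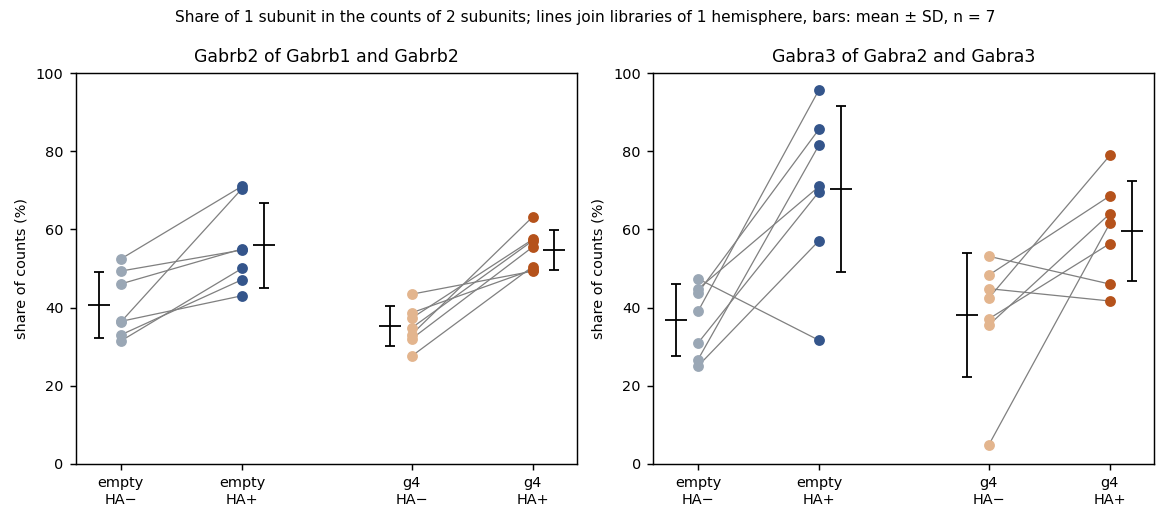
Share (%) of Gabrb2 in the counts of Gabrb1 and Gabrb2 (left) and of Gabra3 in those of Gabra2 and Gabra3 (right) in each library; grey lines join the HA-negative and HA-positive libraries of 1 animal and vector, and bars are the mean ± SD of 7 animals. Every line for Gabrb2 slopes upward, while 1 line with empty and 2 with g4 slope downward for Gabra3. The shares restate the levels of the same libraries and were not tested.

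Among the alpha subunits, Gabra2 and Gabra3 were furthest apart between the fractions, in opposite directions, but with a single vector neither was called. Gabra2, common at synapses on the axon initial segment of pyramidal cells, ranged from 3.48 to 81.9 CPM (median 25.5) in empty HA-positive and from 39.7 to 94.1 CPM (median 57.8) in empty HA-negative libraries. The difference was -1.01 ± 0.39 on the log2 scale (adjusted p = 0.128, lower in 5 of 7 animals), and without animal 20, whose HA-positive library was the highest of its group, it was -1.57 ± 0.41 and passed (adjusted p = 0.0221). That was the 1 of 13 alternatives in which it passed, and without the HA-positive libraries under 10000 detected genes it was -0.60 ± 0.35 (adjusted p = 0.357). With g4, Gabra2 ranged from 19.8 to 73.2 CPM (median 32.9) in HA-positive and from 27.4 to 75.8 CPM (median 63.5) in HA-negative libraries, a difference of -0.51 ± 0.29 (adjusted p = 0.398).

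Gabra3, an X-linked subunit of monoaminergic and some cortical neurons, ranged from 34.0 to 133 CPM (median 45.3) in empty HA-positive and from 27.6 to 47.4 CPM (median 32.2) in empty HA-negative libraries. Its difference was 0.93 ± 0.32 (adjusted p = 0.0835, higher in 6 of 7 animals). With g4 it ranged from 42.6 to 81.0 CPM (median 52.3) in HA-positive and from 3.25 to 71.9 CPM (median 41.4) in HA-negative libraries, a difference of 0.48 ± 0.31 (adjusted p = 0.474). The lowest value came from 1 count in the HA-negative library of animal 18. Gabra3 made up 70.4 ± 21.2% and 59.6 ± 12.9% of the counts of Gabra2 and Gabra3 in empty and g4 HA-positive libraries, against 36.8 ± 9.17% and 38.0 ± 15.9% in HA-negative ones. The share was higher in HA-positive nuclei in 6 of 7 animals with empty and in 5 of 7 with g4. In the animals without Y-linked transcripts Gabra3 was higher in HA-positive nuclei by 0.92 ± 1.16 with empty (log2, mean ± SD, 3 of 3 animals) and by 0.17 ± 0.64 with g4 (1 of 3). In the animals with them the differences were 0.62 ± 0.88 (3 of 4) and 1.35 ± 1.49 (3 of 4). The latter includes the library of animal 18 that held 1 count and the g4 HA-positive library of animal 19 that also held Xist.

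Gabra4 was 67.8 ± 10.9 CPM in empty HA-positive and 99.2 ± 21.8 CPM in empty HA-negative nuclei, a log2 difference of -0.54 ± 0.22 (adjusted p = 0.153). With g4 the means were 94.5 ± 29.1 and 103 ± 29.0 CPM (difference -0.14 ± 0.21, adjusted p = 0.813). Gabra5 was 20.7 ± 10.3 and 32.5 ± 6.37 CPM with empty (-0.66 ± 0.40, adjusted p = 0.394), and 34.5 ± 12.1 and 30.7 ± 13.7 CPM with g4 (0.17 ± 0.33, adjusted p = 0.86). Both lay lowest in the empty HA-positive group, which also had the fewest detected genes, and the part of library complexity in this was not tested. Gabrd was 30.6 ± 24.3 CPM in empty HA-positive, 18.3 ± 12.2 in g4 HA-positive, 19.6 ± 7.37 in empty HA-negative and 18.5 ± 14.1 CPM in g4 HA-negative nuclei. Its difference between the fractions with empty was 0.62 ± 0.47 (adjusted p = 0.516), and with g4 it fell below the count minimum for testing. With the means of each subunit ordered over the 4 groups, no neighbouring pair of groups differed by more than the larger of their SDs.

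After the separate comparisons had been seen, the fraction effect was averaged over both vectors in a model with the animal as a block, over 28 libraries. In this added comparison 4 of 7 subunits were called, against 13.7% of 7197 tested genes (6.46% higher and 7.25% lower in HA-positive nuclei). Gabrb2 rose by 0.67 ± 0.12 (edgeR, adjusted p = 2.14e-05, higher in 7 of 7 animals) and was called in all 14 alternative settings. Gabra3 rose by 0.72 ± 0.24 (adjusted p = 0.0343, 7 of 7 animals), Gabra2 fell by 0.89 ± 0.25 (adjusted p = 0.00916, 7 of 7) and Gabrb1 fell by 0.39 ± 0.11 (adjusted p = 0.0129, 6 of 7). These 3 calls were less firm. Gabra3 was called in 5 of 14 settings and lost with any of the animals 17, 18, 19, 20, 21 or 23 left out (adjusted p between 0.0547 and 0.11) and with the mixed library of animal 19 left out (0.0607). Gabra2 was called in 10 of 14 settings and lost without animal 17 (0.0529) or 23 (0.0631), and Gabrb1 in 12 of 14 and lost without animal 17 (0.109) or 23 (0.0563). Without the HA-positive libraries under 10000 detected genes, Gabra2 and Gabra3 were not called (adjusted p = 0.0914 and 0.101), nor were they with limma voom (0.152 and 0.102). Gabra4, Gabra5 and Gabrd gave -0.32 ± 0.15, -0.28 ± 0.26 and 0.36 ± 0.36 (adjusted p = 0.178, 0.556 and 0.612). Over the 7 subunits the median was -0.28, and over all tested genes -0.03. This averaged comparison uses the same libraries as the separate ones and adds no independent support.

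**Figure D3:**
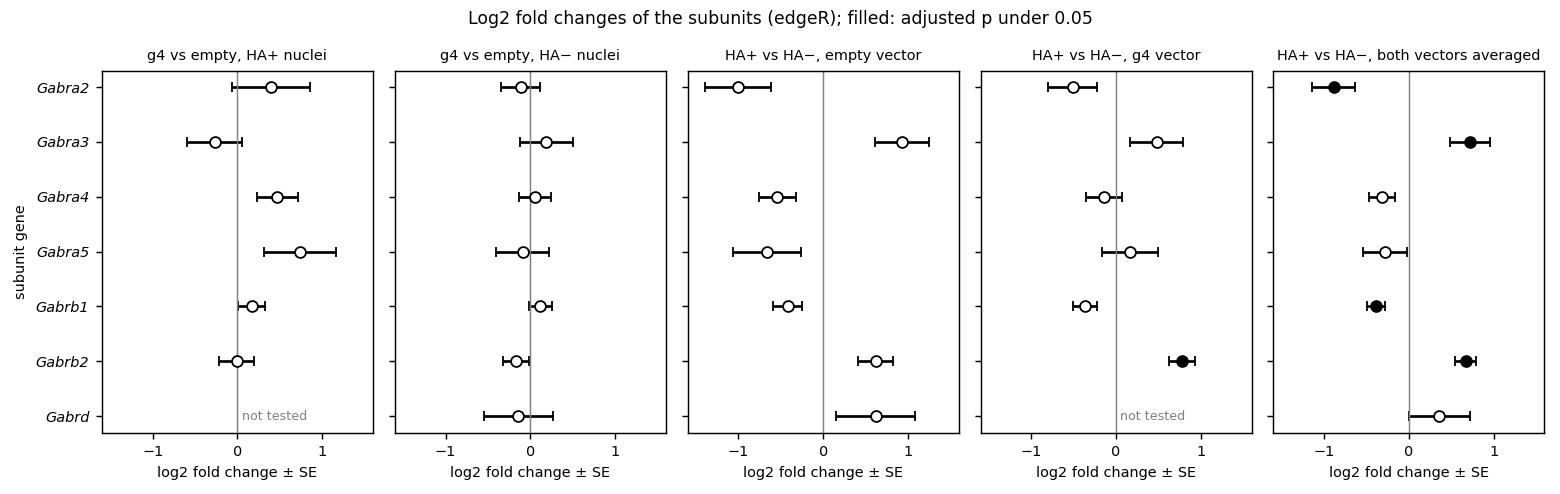
Log2 fold changes ± SE (horizontal axes) of the 7 subunits (rows) in 5 comparisons, from edgeR; filled points have an adjusted p under 0.05, open points do not. Gabrb2 is filled in the g4 fraction comparison and, with Gabra2, Gabra3 and Gabrb1, in the averaged one, and no point is filled for g4 against empty.

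Per kilobase of exon, a scale that assumes counts in proportion to exon length, Gabrb2 was the highest of the 7 subunits in each group. It stood at 39.4 ± 16.4 and 39.6 ± 8.62 CPM per kilobase in empty and g4 HA-positive nuclei, and at 26.0 ± 5.14 and 22.9 ± 4.28 in HA-negative nuclei (SD, n = 7). The subunit next to it was Gabra3 in empty HA-positive nuclei (17.3 ± 9.64), Gabra4 in g4 HA-positive nuclei (15.5 ± 4.79), and Gabrb1 in HA-negative nuclei (17.8 ± 4.80 and 19.4 ± 3.31). These places were not clear of the subunit that followed, which lay within the larger SD. That was Gabrb1 in HA-positive nuclei (13.2 ± 1.77 and 15.0 ± 2.80) and Gabra4 in HA-negative nuclei (16.3 ± 3.59 and 16.9 ± 4.76). In g4 HA-negative nuclei Gabrb2 and Gabrb1 differed by less than the SD of Gabrb2. In plain CPM, without division by length, Gabrb1 was above Gabrb2 in HA-negative nuclei (247 against 166 with empty and 269 against 145 with g4). Per kilobase, Gabra2 was the lowest of the 7 in HA-positive nuclei (3.90 ± 3.44 and 5.38 ± 2.85), while Gabrd was lowest in HA-negative nuclei (6.80 ± 2.56 and 6.44 ± 4.88). The next lowest lay within the larger SD each time. It was Gabra5 in empty HA-positive nuclei (6.99 ± 3.47), Gabrd in g4 HA-positive nuclei (6.35 ± 4.22), and Gabra2 in HA-negative nuclei (8.35 ± 2.32 and 7.79 ± 2.16).

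Among 27 genes for the scaffold, assembly and trafficking of GABA-A receptors, 26 of them in the files, 4 of 25 tested genes were called between the fractions with empty, 3 higher and 1 lower in HA-positive nuclei, and 2 of 26 with g4, 1 in each direction. Over all tested genes the shares called were 7.01% and 6.4%, and nothing particular to the list is read from its counts. Kif5a, a kinesin motor that carries receptors along dendrites, rose with both vectors, by 0.64 ± 0.14 (adjusted p = 0.00322) and 0.52 ± 0.14 (adjusted p = 0.0185). With empty, Nsf, an ATPase of membrane fusion, rose by 0.59 ± 0.12 (adjusted p = 0.002) and Iqsec3, a gephyrin-binding exchange factor of inhibitory synapses, rose by 0.97 ± 0.26 (adjusted p = 0.0193). Shisa7, an auxiliary subunit of the receptor, fell by 0.76 ± 0.22 with empty (adjusted p = 0.0287). Hap1, which links receptors to kinesin for return to the membrane, fell by 1.39 ± 0.37 with g4 (adjusted p = 0.0183). With the other vector these genes were not called. Nsf, Iqsec3 and Shisa7 differed by 0.03 ± 0.12, 0.32 ± 0.22 and -0.28 ± 0.20 with g4 (adjusted p = 0.939, 0.495 and 0.524). Hap1 differed by -0.89 ± 0.49 with empty (adjusted p = 0.323). With empty, Iqsec3 was not called with the animal as a block (adjusted p = 0.0588), without a filter (0.0611), or without animal 17 (0.0809) or 22 (0.088). Without the HA-positive libraries under 10000 detected genes it was 0.67 ± 0.29 (adjusted p = 0.167). Shisa7 was not called with any of the animals 17, 19, 20, 21 or 23 left out (adjusted p up to 0.0932). With g4, Kif5a was not called without animal 20 (0.094) or 21 (0.136), nor was Hap1 without animal 20 (0.115), 21 (0.0673) or 22 (0.0537). In the averaged comparison, where 13.7% of all genes were called, 4 rose and 2 fell of 26. Gabarapl1, a receptor-trafficking protein, was added to the genes above (0.35 ± 0.11, adjusted p = 0.0237). It was lost without animal 19, 20 or 21, or without a filter (0.0571). Nsf was lost there without animal 23 (0.0727) or a filter (0.0584), and Hap1 without animal 20 (0.0593). Iqsec3 was lost without animal 17 (0.0644), animal 22 (0.0513) or the libraries under 10000 detected genes (0.0613). The list's median was 0.05 with empty and 0.02 with g4, beside 0.01 over all tested genes both times.

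Of 6 genes for the metabotropic GABA-B receptor, 4 were tested, and 1 was called with empty and none with g4. Over all tested genes, 7.01% and 6.4% were called. Gabbr2, the subunit that couples the receptor to G proteins, rose by 0.56 ± 0.14 with empty (adjusted p = 0.0077) and by 0.45 ± 0.09 in the averaged comparison (adjusted p = 0.000126). With g4 its difference was 0.32 ± 0.14 (adjusted p = 0.219, higher in 7 of 7 animals). None of the tested genes of these 2 lists was called for g4 against empty in either fraction, or for the difference of the effects.

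**Figure D4:**
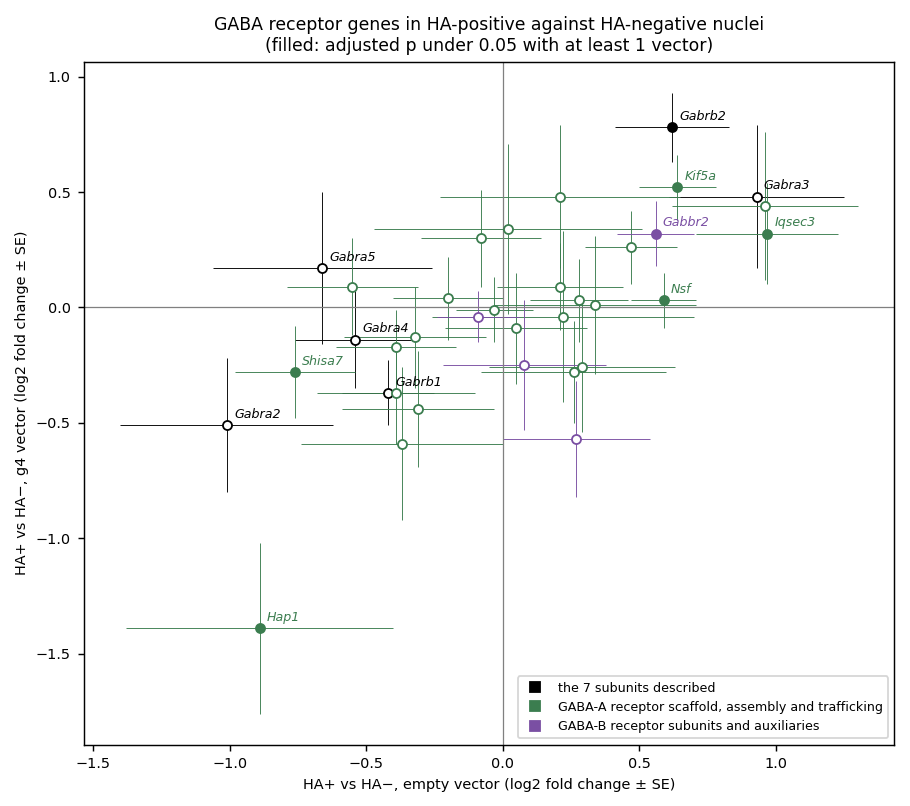
Log2 fold changes ± SE of HA-positive against HA-negative nuclei with the empty vector (horizontal axis) and with g4 (vertical axis) for the 35 GABA receptor genes tested with both (Gabrd, untested with g4, is not shown); colours give the list, filled points have an adjusted p under 0.05 with at least 1 vector. Gabrb2 and Kif5a lie at the upper right (0.62 and 0.64 with empty, 0.78 and 0.52 with g4), while Gabra2 and Hap1 lie at the lower left.

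Markers of several cell types also differed between the fractions. Inhibitory neuron markers rose in HA-positive nuclei, 11 of 13 tested with empty and 11 of 14 with g4, and none fell. Their summed level was 3322 to 4687 CPM in empty and 1975 to 4054 CPM in g4 HA-positive libraries, against 1074 to 1448 and 969 to 1439 CPM in HA-negative ones. Gad1, the enzyme that makes GABA, was at 725 ± 239 and 638 ± 197 CPM in HA-positive and 203 ± 53.3 and 197 ± 45.3 CPM in HA-negative nuclei. Markers of striatal projection neurons, a cell type outside the labelled cortex, fell in HA-positive nuclei, 6 of 7 tested with empty and 6 of 8 with g4. Their summed level was 193 to 348 and 210 to 646 CPM in HA-positive libraries against 926 to 2363 and 292 to 1814 CPM in HA-negative libraries, where Pde10a was highest, and Adora2a and Gpr6 had no count in any empty HA-positive library. The 646 CPM came from the g4 HA-positive library of animal 19, against a group median of 235 CPM.

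Excitatory neuron markers fell in 4 of 14 tested and rose in 1 with empty, and fell in 3 of 15 with g4. Oligodendrocyte markers, among them the myelin gene Mbp, fell in HA-positive nuclei in 7 of 7 tested with empty and 6 of 8 with g4. Their summed level was 1096 to 1834 and 1365 to 2417 CPM in HA-negative libraries, 52.0 to 122 CPM in empty HA-positive ones, and 95.0 to 1357 CPM in g4 HA-positive ones, the highest being animal 19. Microglia markers, led by Ctss and Csf1r, fell in 5 of 5 and 4 of 6 tested. They summed to 271 to 621 and 420 to 654 CPM in HA-negative and to 6.95 to 44.2 and 2.75 to 356 CPM in HA-positive libraries, and Cx3cr1, P2ry12, C1qa, C1qc and Gpr34 had no count in the empty HA-positive ones. The 356 CPM came from the g4 library of animal 19, against a group median of 32.9 CPM. Markers of oligodendrocyte precursors, led by Vcan and Pdgfra, fell in 1 of 1 and 2 of 2 tested. Astrocyte markers, led by Slc1a2 and Slc1a3, fell in 1 of 7 tested with empty and 0 of 8 with g4, and summed to 629 to 1502 CPM in empty and 972 to 2769 CPM in g4 HA-positive libraries, against 1252 to 1640 and 1235 to 1755 CPM in HA-negative ones. Of the endothelial markers, led by Flt1 and Pecam1, 0 were tested, with at most 25.7 CPM summed in a library. The markers' part in the differences of Gabrb2, Gabra2, Gabra3 and Gabrb1 was not tested.

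Gene profiles nearest to each called subunit were found over 28 libraries among 7197 genes, by the root mean square (RMS) distance of centred log2 CPM. Gabrb1 lay nearest to Pcdh10 (0.194), a protocadherin, then to Gpm6a (0.231), a neuronal membrane glycoprotein, and Pgm2l1 (0.236), against a median distance of 0.713 to all genes. Gabrb2 lay nearest to Epm2aip1 (0.321), Scoc (0.333) and Aars (0.358), against a median of 0.813. Epm2aip1 was 220 ± 55.6 and 218 ± 29.3 CPM in HA-positive and 136 ± 23.7 and 165 ± 40.5 CPM in HA-negative nuclei. For Gabra2 the nearest were Galnt13 (0.532), Cnnm2 (0.586) and Dpy19l3 (0.604), and for Gabra3 Fam168b (0.518), Igfbp4 (0.52) and Pdzrn3 (0.536), against medians of 1.05 and 0.99. The distances of the low-count subunits Gabra2 and Gabra3 were larger than those of the beta subunits, and the points share library depth and fraction.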

How the data were processed

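RNA of sorted nuclei was measured in 28 libraries, 7 per group. The authors deposited raw counts, per the labels, and all values are whole numbers. Cells without a value were read as 0, and 1 entry without a gene name, which held 0 counts, was left out. The build is GRCm38, per the submitters' processing notes. Aligner, counter, strand setting and whether molecular identifiers were used: not given in the sources used here. For 3 animals the number in the sample title is 1 lower than in the table's column name, and the descriptions tied samples to columns. Gene positions, exon lengths and 3′ UTRs came from GENCODE on GRCm38, where 41474 of 41549 identifiers matched, and promoters from RefSeq.

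Genes were tested with edgeR 4.0.16 in R 4.3.3 (quasi-likelihood, robust, two-sided, filterByExpr by group, TMM factors), in 5 comparisons and 1 added after their results had been seen. A call is a Benjamini-Hochberg adjusted p under 0.05 over all tested genes, and adjusted p-values come from edgeR unless another tool is named. The fit was tested on simulated data. Levels are CPM with TMM factors. Differences within animals, used for the split by Y-linked transcripts, are of log2(CPM + 1), and profiles of log2 CPM used a prior count of 2. Depth, 248612 to 902944 counts per library, sets the counting precision.

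Alternatives were DESeq2 1.42.0, limma 3.58.1 voom, RLE size factors, no filter, the animal as a replicate block, each animal left out, HA-positive libraries under 10000 detected genes left out, and the mixed library of animal 19 (g4, HA-positive, with both Xist and Y-linked transcripts) left out. The animal number in the labels pairs the libraries, since the 4 libraries of an animal come from the same mouse, although paired libraries barely deviated together (median correlation of deviations 0.011 to 0.061).

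The members and gene lists were chosen with earlier results of these data known. The text names all 7 members, pathway genes called in at least 1 comparison, the 2 most abundant markers of each list (1 where the other is not reported here), and the 3 nearest profiles of each member called between the fractions. The list of other receptor subunits is not reported here. The markers listed at 0 were named after their values had been seen.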

Additional observations from a re-analysis of the deposited data

Results flagged for a closer look

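In 28 sets of 7 libraries (7 subunits in 4 groups), 2 held 1 library far from the rest. Chance would flag about 1 set in 20, so 2 of 28 sets is not read as an excess. Gabrb2 in g4 HA-positive nuclei reached 368.48 CPM in animal 18, while the next highest library had 262.58 CPM and the lowest 203.02 CPM; the gap was 0.64 of the range, above the critical value of 0.568. Gabrd in empty HA-positive nuclei reached 79.91 CPM in animal 17, while the next highest library had 35.38 CPM and the lowest 3.68 CPM, a gap of 0.584 of the range. Both flagged libraries were among those under 10000 detected genes, with 9282 (animal 18) and 9275 (animal 17). The part of library complexity in their values was not tested.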

How the results depend on the processing

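The call of Gabrb2 between the fractions with g4 and in the averaged comparison held in the 14 alternatives run for each, and with the animal as a replicate block its g4 difference was 0.77 ± 0.15 (adjusted p = 0.00159). The replicate block changed no other call of a subunit. Leaving out 1 animal at a time gave 0 to 1 called subunits between the fractions with empty (1 without animal 20) and 1 to 2 with g4 (2 without animal 19). With empty and without animal 20, 162 of all 5625 tested genes were called higher and 156 lower, against 194 and 194 of 5538 with all animals. With g4 and without animal 19 these numbers were 213 and 209 of 6202. The scaffold list had 0 to 2 called genes with g4 (0 without animal 20 or 21, 1 without animal 22). Calls over all tested genes dropped too, from 208 higher and 193 lower of 6264 to 121 and 97 of 6276 without animal 20. They were 133 and 91 of 6146 without animal 21, and 137 and 104 of 6234 without animal 22. In the averaged comparison, 4 called subunits became 2 with limma voom, 2 without the libraries under 10000 detected genes, and 1 to 4 with 1 animal left out (1 without animal 17 or 23). Signs turned only for values that were not called. For g4 against empty in HA-positive nuclei, Gabrb2 gave 0.01 with voom, 0.04 without a filter, 0.06 with the block, 0.25 without the libraries under 10000 genes and -0.14 to 0.17 with 1 animal left out; Gabra3 gave 0.11 without those libraries and -0.49 to 0.05. In HA-negative nuclei, with 1 animal left out, Gabra2 gave -0.21 to 0.13, Gabra3 -0.05 to 0.33, Gabra4 -0.02 to 0.15, Gabra5 -0.25 to 0.09 and Gabrd -0.12 to 0.01 over the 4 leave-outs in which it reached the count minimum; with voom Gabrd gave -0.43. For the difference of the g4 effects these ranges were -0.03 to 1.09 for Gabra2, -0.11 to 0.17 for Gabrb1 and -0.01 to 0.39 for Gabrb2; Gabrb1 gave -0.0025 with the mixed g4 library of animal 19 left out, and Gabrd 0.33 without the libraries under 10000 genes, which also turned its fraction difference with empty to -0.19. The causes were not tested. Without a filter, the median of all genes moved to 0.14 in g4 against empty HA-positive nuclei and to -0.18 between the fractions with empty.

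Of the values of single genes under an alternative, 691 counted as unchanged, 40 lost the call, 2 gained it and 20 turned sign. The 691 include values that were not called to begin with and could not lose a call. Setting 40 against 691 therefore gives no rate of lost calls. Unchanged fold changes kept direction and side of the threshold, or kept direction where DESeq2 gave no adjusted p. The 691 also include mean CPM of the subunits without TMM factors, which moved by less than 1 SD. Gabrd, at 1 to 26 counts per library, had the fewest, and how much of its spread is counting error was not tested. Each p-value sets a difference against the spread between libraries, which came from 7 animals, or fewer where some were left out. Outside the replicate block setting, the 5 planned comparisons took no account of which libraries shared an animal. Strain and age of the animals are not stated.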
